A study of Mus musculus with 9 samples.

Results

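Cells in the act of division were collected from a single-cell atlas of the mouse spleen, whatever lineage they belonged to. A cell was counted as cycling when it held 3 or more RNA molecules (UMIs, the molecular tags that mark original molecules) summed over Mki67, Top2a, Birc5 and Ccna2. By that rule 1149 of 45218 kept cells (2.54%) were cycling. The cells were chosen by the measured UMIs of those 4 genes, so the levels of these genes are a description only, and so is every comparison of cycling with not cycling cells.

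Ern1 encodes IRE1, a sensor of stress in the endoplasmic reticulum (ER). The spleens came from mice with its R594C change on both alleles (R594C/R594C, 2 replicates), on a single allele (R594C/+, 4 replicates) or on neither (WT, 4 replicates). Total splenocytes were freed of dead cells by sorting with the dye DAPI and profiled by CITE-seq, in which droplets capture transcripts and the tags of surface antibodies from the same cell. Each genotype was a separate capture with its own staining, and hashtag antibodies against CD45 and MHC class I told its replicates apart. An effect of genotype cannot be told apart from one of the capture or of the staining. The labels name replicates without saying that each is an animal, so the tests rest on the spread among these samples, which may be technical. The series asked whether the R594C change affects the immune compartment, with Xbp1 splicing and B cell tolerance named in its title. IRE1 cuts Xbp1 messenger RNA, which then encodes XBP1s, the factor that builds the secretory machinery of plasma cells.

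A dividing cell copies its DNA in S phase and then builds a spindle and divides in G2 and M. Genes of S phase are switched on by E2F factors. Genes of G2 and M are switched on later through CCAAT boxes and the element TTTGAA, called CHR, to which the DREAM and MuvB complexes bind. Mki67 encodes the Ki-67 protein that coats mitotic chromosomes, Top2a the topoisomerase that untangles sister DNA, Birc5 survivin of the chromosomal passenger complex, and Ccna2 cyclin A2, which drives S phase and entry into mitosis. In the spleen, dividing cells are known from germinal centres, where activated B cells mutate their antibody genes, from plasmablasts on their way to becoming plasma cells, from stimulated T cells, and, in mice, from red cell precursors and myeloid precursors of the red pulp.

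The start regions of 3 genes of the rule and of 3 of the genes that stood highest in cycling cells are shown because their motifs differ with the phase in which a gene is used. Each sequence runs from 250 bases before to 50 bases after the gene's start on its own strand (RefSeq, GRCm38.p6). Capitals mark CCAAT and TTTGAA on either strand, written ATTGG and TTCAAA on the reverse strand. The positions are Mki67 chr7:135716330-135716629 (minus strand), Top2a chr11:99024140-99024439 (minus strand), Birc5 chr11:117848987-117849286 (plus strand), Ube2c chr2:164769679-164769978 (plus strand), Cdk1 chr10:69352863-69353162 (minus strand) and Pclaf chr9:65890073-65890372 (plus strand).
Mki67: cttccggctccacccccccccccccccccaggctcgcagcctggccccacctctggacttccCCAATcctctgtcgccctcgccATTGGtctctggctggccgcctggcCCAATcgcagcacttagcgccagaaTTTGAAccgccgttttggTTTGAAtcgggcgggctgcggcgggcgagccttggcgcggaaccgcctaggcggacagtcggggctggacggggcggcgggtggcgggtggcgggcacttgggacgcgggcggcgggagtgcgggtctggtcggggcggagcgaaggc
Top2a: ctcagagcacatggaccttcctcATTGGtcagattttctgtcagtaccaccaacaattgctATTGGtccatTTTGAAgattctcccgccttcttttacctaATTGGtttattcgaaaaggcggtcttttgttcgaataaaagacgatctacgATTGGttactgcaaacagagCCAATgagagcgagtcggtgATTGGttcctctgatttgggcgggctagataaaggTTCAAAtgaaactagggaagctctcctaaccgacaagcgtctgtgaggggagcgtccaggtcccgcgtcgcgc
Birc5: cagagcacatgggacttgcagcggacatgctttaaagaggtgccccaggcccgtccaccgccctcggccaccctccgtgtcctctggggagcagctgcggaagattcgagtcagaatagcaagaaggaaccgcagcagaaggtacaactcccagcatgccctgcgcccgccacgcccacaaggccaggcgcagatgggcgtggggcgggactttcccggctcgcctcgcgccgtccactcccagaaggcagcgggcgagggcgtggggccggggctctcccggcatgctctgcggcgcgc
Ube2c: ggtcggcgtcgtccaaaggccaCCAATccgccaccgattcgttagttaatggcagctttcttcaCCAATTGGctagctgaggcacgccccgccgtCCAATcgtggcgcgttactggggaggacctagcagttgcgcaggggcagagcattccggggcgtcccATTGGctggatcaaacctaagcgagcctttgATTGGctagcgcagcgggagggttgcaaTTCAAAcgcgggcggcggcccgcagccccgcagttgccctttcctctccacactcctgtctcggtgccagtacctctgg
Cdk1: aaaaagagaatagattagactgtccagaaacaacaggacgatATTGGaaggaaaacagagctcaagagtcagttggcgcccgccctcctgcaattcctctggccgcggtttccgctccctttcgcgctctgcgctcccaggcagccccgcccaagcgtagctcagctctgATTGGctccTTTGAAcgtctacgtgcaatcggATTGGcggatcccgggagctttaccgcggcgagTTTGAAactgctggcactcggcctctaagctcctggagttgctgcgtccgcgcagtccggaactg
Pclaf: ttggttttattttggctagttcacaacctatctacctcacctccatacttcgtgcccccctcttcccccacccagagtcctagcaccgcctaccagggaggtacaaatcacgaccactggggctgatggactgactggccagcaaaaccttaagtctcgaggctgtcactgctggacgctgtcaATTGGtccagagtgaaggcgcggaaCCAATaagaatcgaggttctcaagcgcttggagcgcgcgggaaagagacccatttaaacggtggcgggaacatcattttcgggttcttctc

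The window of Top2a held 6 CCAAT boxes and 2 TTTGAA elements, that of Mki67 3 and 2, that of Cdk1 3 and 2, and that of Ube2c 6 and 1. The Birc5 window held neither, and that of Pclaf held 2 CCAAT boxes and no TTTGAA. The CHR letters on either strand lay in 20 of 27 windows of a list of G2 and M genes (74.1%), in 4 of 25 windows of a list of S phase genes (16%) and in 4893 of 27025 windows of all genes (18.1%). The CCAAT box lay in 22 of 27 G2 and M windows (81.5%), 17 of 25 S phase windows (68%) and 37.9% of all windows. The forms TTTGGCGC and TTTCCCGC of the E2F element, searched on both strands, lay in 8 of 25 S phase windows (32%), in 0 of 27 G2 and M windows and in 1.63% of all windows, and Pclaf held 1. CHR elements so stood with the G2 and M list and E2F forms with the S phase list, while CCAAT was frequent in both. A match of letters is a description, not a site in use.

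Within the cycling cells Mki67 was found in 91.2%, Top2a in 90.4%, Birc5 in 73.8% and Ccna2 in 62.8%, against 2.2%, 4.15%, 1.08% and 0.359% of the cells that were not cycling. All 4 genes were present in 654 cells (56.9%). The median cycling cell held 21 UMIs of the 4 genes, and the highest held 202. Cycling cells were large libraries, with a median of 14407 UMIs and 3654 genes. The 138 cells with exactly 3 UMIs had a median of 8376 UMIs, the 517 just outside with 2 had 5953, and the 40765 with none had 3157. Depth therefore moved with the rule, and 586 cells stayed above the limit when every cell was thinned to 2000 UMIs. Among kept cells 186 barcode sequences occurred in more than 1 capture, and none of these belonged to a cycling cell.

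A kept replicate held 3066 to 8142 cells, of which 59 to 170 were cycling, with a median of 12442 to 17453 UMIs per cycling cell. The captures held 74538447 (R594C/R594C), 87953814 (R594C/+) and 74546390 (WT) RNA UMIs. Xist, which is made from the inactive X chromosome, divided the replicates. Over all kept cells it stood at 26.1 and 1354 CPM (counts of a gene scaled to a fixed library total) in R594C/R594C. Its level was 1237 to 1388 CPM in all 4 R594C/+ replicates, and 18.7, 1345, 20.1 and 25.6 CPM in WT replicates 1 to 4. All R594C/+ replicates were thus Xist-high, against 1 of 2 R594C/R594C and 1 of 4 WT replicates, and the part of this difference in comparisons with R594C/+ was examined only by adding it to the fits.

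No test of the share of cycling cells between genotypes passed. The share was 1.82% and 2.08% in R594C/R594C, 5.04%, 4.13%, 1.85% and 3.76% in R594C/+, and 2.09%, 2.11%, 2.29% and 1.83% in WT. The means were 1.95% ± 0.18 (SD, n = 2), 3.70% ± 1.34 (n = 4) and 2.08% ± 0.19 (n = 4). R594C/+ replicates 1, 2 and 4 lay above every other replicate and replicate 3 lay among the WT values. The correlation of the share with the number of mutant alleles was 0.118 (exact two-sided permutation test, 3150 assignments, p = 0.74). R594C/+ exceeded WT by 1.62 points (exact permutation p = 0.114, where 0.0286 is the smallest p that 4 against 4 replicates allow). R594C/R594C differed from WT by -0.134 points (exact permutation p = 0.333, smallest possible 0.0667) and from R594C/+ by -1.75 points (exact permutation p = 0.267). Without R594C/+ replicate 3 the difference from WT was 2.23 points (exact permutation p = 0.0286). That replicate was the only R594C/+ value within the WT range, so leaving it out fixed p at its smallest and decides nothing. Leaving out any other R594C/+ or WT replicate gave an exact permutation p of 0.114 to 0.143. Leaving out cells of more than 3 times their capture's median UMIs gave 0.59 points with all R594C/+ values above all WT values (exact permutation p = 0.0286).

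**Figure D1:**
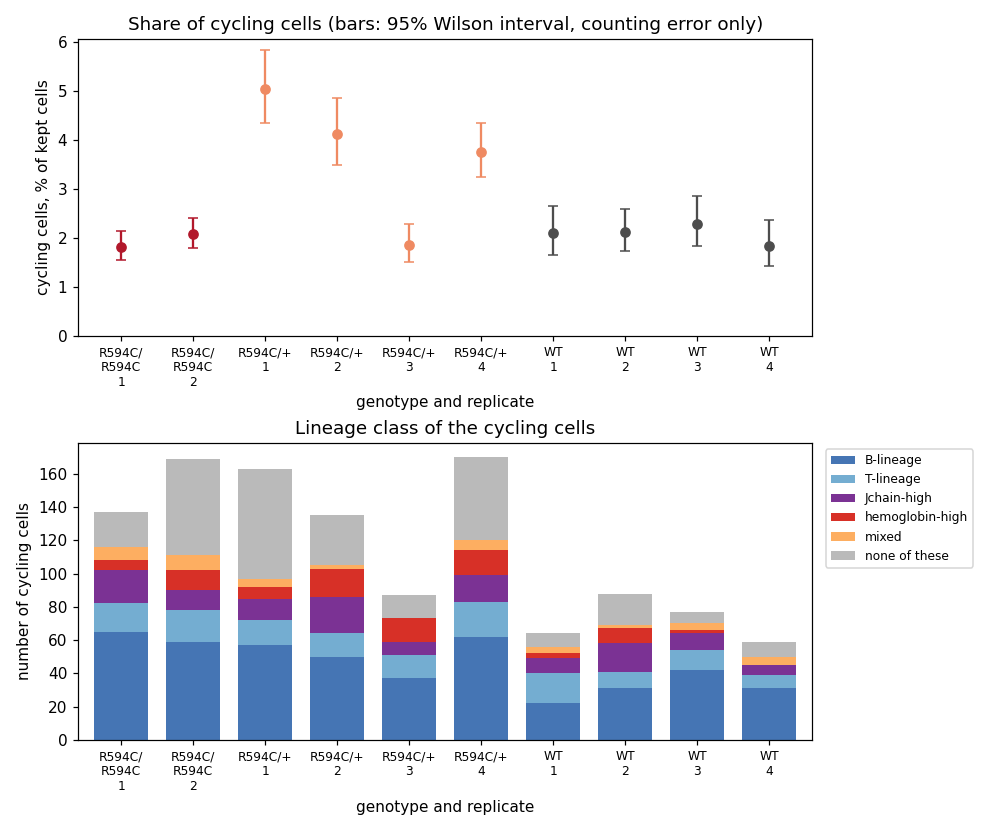
Share of cycling cells among kept cells (percent, upper panel, with 95% Wilson intervals for counting error) and number of cycling cells by lineage class (lower panel) in each replicate of R594C/R594C, R594C/+ and WT. R594C/+ replicates 1, 2 and 4 lie at 3.76% to 5.04%, above all others, and B-lineage cells are the largest class in all replicates but R594C/+ 1.

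Every cell was given a lineage from raw UMIs, in the order hemoglobin (Hbb-bs and Hba-a1, 20 or more), Jchain (20 or more), Cd79a and Cd79b together with the Cd3 genes (2 or more of each, called mixed), Cd79 genes alone, Cd3 genes alone, and none of these. B-lineage cells were the largest class with 456 cycling cells (39.7% of the cycling cells, against 55.2% of the others). T-lineage cells numbered 148 (12.9%, against 29.3%), Jchain-high cells 133 (11.6%, against 2.0%), hemoglobin-high cells 85 (7.4%, against 0.093%), mixed cells 45 (3.92%, against 3.17%) and cells with none of these marks 282 (24.5%, against 10.3%). Read within a class, 67.5% of hemoglobin-high cells, 13.1% of Jchain-high cells, 5.86% of unmarked cells, 3.12% of mixed cells, 1.84% of B-lineage cells and 1.13% of T-lineage cells were cycling. The hemoglobin-high share rests on 85 cycling and 41 not cycling cells that passed the limits on genes and hashtags. Whether those limits keep cycling and not cycling red cells alike was not tested. By these raw counts the cycling cells were made up less of B and T cells, and more of Jchain-high, hemoglobin-high and unmarked cells, than the other kept cells. Depth differed between the classes. The median of not cycling cells was 18066 UMIs in Jchain-high, 6295 in hemoglobin-high, 3539 in T-lineage, 2969 in unmarked and 2889 in B-lineage cells. Deeper cells reach 3 UMIs of the rule more readily, and the make-up at equal depth is not given here. A mixed cell carries B and T genes at once, and doublets within a hashtag were not called.

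The lineage make-up and the share within each class passed no test between genotypes after adjustment over the 6 classes. B-lineage cells made up 47.4% and 34.9% of the cycling cells in R594C/R594C, 35.0%, 37.0%, 42.5% and 36.5% in R594C/+, and 34.4%, 35.2%, 54.5% and 52.5% in WT. Within the B lineage 1.36% and 1.43% of R594C/R594C cells were cycling, 3.04%, 2.80%, 1.67% and 2.64% of R594C/+ cells, and 1.35%, 1.28%, 2.17% and 1.85% of WT cells. The R594C/+ and WT ranges overlapped, with a difference of 0.875 points (exact permutation p = 0.0857, adjusted p = 0.229). Within Jchain-high cells the share was 19.4% and 9.68% in R594C/R594C, 8.16% to 14.2% in R594C/+ and 8.33% to 20.0% in WT, with full overlap. Unmarked cells took 15.3% and 34.3% of the cycling cells in R594C/R594C, 40.5%, 22.2%, 16.1% and 29.4% in R594C/+ and 12.5%, 21.6%, 9.09% and 15.3% in WT (R594C/+ minus WT 12.4 points, exact permutation p = 0.0571, adjusted p = 0.257).

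Cycling B-lineage cells carried the full programme of DNA replication and mitosis. Levels are CPM of counts summed per replicate, ratios are log2 of cycling over not cycling with 5 CPM added, and genes of at least 50 CPM in the higher state were ranked with the rule genes left out. Of 3734 genes ranked, 14.8% had a median ratio above 1, 7.93% had one below -1, and the median was 0.132. How many of all genes did not overlap between the states was not counted. Statements of overlap here and below so describe the named genes and lists only. All 30 S phase genes and all 30 G2 and M genes of the lists were higher in the pooled cycling cells. The summed S phase list reached 4477 to 6078 CPM over the 10 replicates (median 5589) in cycling cells and 726.3 to 788.6 CPM (median 753.8) in the others, and the G2 and M list 5852 to 8295 CPM (median 6674) and 785.9 to 851.7 CPM (median 820.6). The groups did not overlap in either list. Since the rule picks cells by genes of the same programme, these counts describe the cells and are no independent evidence.

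The highest ratio was that of Pclaf, the PCNA-associated factor of DNA repair. Pclaf had 431.2 to 803.0 CPM (median 728.1) in cycling and 2.23 to 5.20 CPM (median 4.12) in not cycling B-lineage cells, a median log2 ratio of 6.25. Ube2c, which supplies ubiquitin to the anaphase-promoting complex and whose window is shown above, had 197.4 to 509.2 CPM (median 314.5), against 2.18 to 7.34 CPM (median 3.63), a ratio of 5.08. Next came Cenpf of the kinetochore (5.05), the linker histone H1f5 (4.87), Rrm2 of the enzyme that makes deoxyribonucleotides (4.76), the mitotic kinase Cdk1 (4.69), the spindle motor Kif11 (4.58), the kinetochore subunit Spc24 (4.55), Stmn1, which destabilises microtubules (4.53), and Cdca8 of the chromosomal passenger complex (4.44). Each of these 10 genes was higher in cycling cells in 10 of 10 replicates.

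Genes of the replication fork followed. Pcna, the sliding clamp, had 386.3 to 588.0 CPM (median 490.1) in cycling cells and 90.7 to 114.6 CPM (median 97.5) in the others. Mcm5, a subunit of the replicative helicase, had 179.0 to 282.1 CPM (median 211.2), against 14.0 to 20.9 CPM (median 16.3). Tyms, which makes thymidylate, had 118.3 to 191.8 CPM (median 150.4), against 2.83 to 5.84 CPM (median 4.35). These 3 genes did not overlap between the states. Among mitotic genes, Ccnb1, the cyclin that activates Cdk1, had 58.3 to 146.6 CPM (median 98.6), against 0.59 to 2.98 CPM (median 1.97). Plk1, the kinase of centrosomes and kinetochores, had 31.4 to 78.8 CPM (median 52.0), against 0.165 to 0.852 CPM (median 0.525). Cenpa, the histone that marks centromeres, was the G2 and M gene that stood closest between the states, with 171.2 to 331.7 CPM (median 240.4), against 109.4 to 145.4 CPM (median 126.0).

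Genes that bring cells into the cycle were less uniform. Of the 11 genes of the G1 entry list 10 were higher in the pooled cycling cells. Among the 7 of them that were ranked, 5 (71.4%) had a ratio above 1, against 14.8% of all ranked genes. Ccne1 (cyclin E1) had 38.6 to 75.4 CPM (median 49.4), against 0.989 to 4.31 CPM (median 2.61), while Ccnd2 (cyclin D2) had 154.3 to 272.6 CPM (median 209.0), against 141.2 to 197.1 CPM (median 166.1), with overlapping ranges. Myc, the growth regulator, went the other way in all 10 replicates, with 85.2 to 203.3 CPM (median 141.5) in cycling cells and 219.2 to 368.9 CPM (median 301.6) in the others. The list of quiescence and arrest genes summed to 1604 to 2203 CPM (median 1990) in cycling and 4323 to 5700 CPM (median 5301) in not cycling cells, while 4 of its 10 genes were higher in the pooled cycling cells. Btg1, which slows growth, had 546.3 to 710.3 CPM (median 668.4), against 2054 to 2446 CPM (median 2218). Klf2, which keeps lymphocytes resting and in circulation, had 402.3 to 864.1 CPM (median 587.7), against 1278 to 2394 CPM (median 1929). Neither overlapped between the states. Cdkn1a, an inhibitor of cyclin-dependent kinases and 1 of the 4 higher genes, had 7.92 to 111.1 CPM (median 25.5), against 13.3 to 20.9 CPM (median 16.6), with overlapping ranges.

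**Figure D2:**
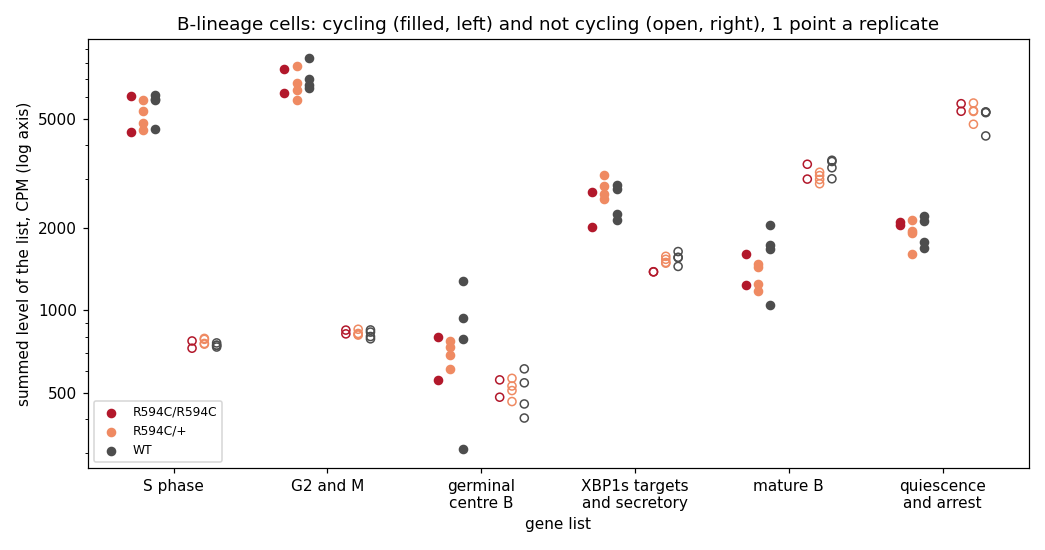
Gene lists in B-lineage cells: summed CPM on a log axis in cycling (filled) and in not cycling (open) cells, 1 point per replicate. Cell cycle lists sit to the high side in cycling cells (S phase 4477 to 6078 CPM, against 726.3 to 788.6 CPM) and the mature B and quiescence lists sit lower in them.

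The cycling B-lineage cells also carried genes of germinal centre B cells, which the rule did not use. Of the 10 genes of that list 8 were higher in the pooled cycling cells. All 10 were ranked, and 8 (80.0%) had a ratio above 1, against 14.8% of all ranked genes. S1pr2, the receptor that holds B cells in the germinal centre, had 19.2 to 100.9 CPM (median 52.2) in cycling and 1.38 to 8.85 CPM (median 2.83) in not cycling cells. Mef2b, an activator of Bcl6, had 24.4 to 199.7 CPM (median 123.4), against 3.48 to 18.1 CPM (median 6.19). S1pr2 and Mef2b did not overlap between the states. The 2 list genes that were lower were Bcl6, the master repressor of the germinal centre, with 22.4 to 101.4 CPM (median 44.9), against 47.3 to 68.4 CPM (median 59.3), and Gpr183, a guidance receptor that germinal centre cells are known to turn down, with 69.5 to 134.2 CPM (median 117.2), against 315.7 to 475.4 CPM (median 418.8).

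The list of B precursor genes summed to 195.8 CPM in the pooled cycling and 194.7 CPM in the pooled not cycling cells, and 5 of its 7 genes were higher in cycling cells. Vpreb3 made up most of both sums, with 168.2 CPM in cycling and 179.9 CPM in not cycling cells. Vpreb1, a part of the pre-B receptor, had 5.78 CPM, against 0.580 CPM, and the recombinase gene Rag1 0.433 CPM, against 0.348 CPM.

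Genes of the resting mature B cell were lower, with 0 of 7 list genes higher in cycling cells. Of the 7 genes 3 (42.9%) had a ratio below -1, against 7.93% of all ranked genes. Ighd, the heavy chain of IgD, had 78.4 to 220.1 CPM (median 131.2), against 585.5 to 838.7 CPM (median 698.5). Fcer2a, the IgE receptor CD23 of follicular B cells, had 36.7 to 92.0 CPM (median 46.7), against 163.3 to 301.8 CPM (median 239.7), and Cr2, a complement receptor, had 41.9 to 92.0 CPM (median 67.9), against 221.4 to 314.5 CPM (median 281.9). The mature B gene Ms4a1 (CD20) was also lower in 10 of 10 replicates, at a log2 ratio of -0.507. The lowest ratios of all ranked genes were those of C230085N15Rik (-2.79), the complement regulator Cd55 (-2.75), Wfdc17 (-2.70), Gm37593 (-2.68) and Gm37248 (-2.62). Cd55 had 28.5 to 101.2 CPM (median 45.4), against 237.6 to 415.0 CPM (median 344.8). Among antibody constant regions, Ighm had 1393 to 7600 CPM over replicates in cycling and 2618 to 4715 CPM in not cycling cells. Ighg2b had 41.7 to 2356 CPM (median 273.8), against 34.6 to 440.5 CPM (median 119.2), so the ranges of both genes overlapped.

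Surface proteins were read with antibody tags that carry short DNA barcodes. The barcodes of the 4 antibodies that the results below turn on, and the hashtags of the replicates, follow from 5′ to 3′.
CD71: accgaccagtagaca
CD95: cacatcgtttgtgta
CD86: ctggatttgtgtatc
CD117: tgcatgtcatcggtg
Hashtag of replicate 1: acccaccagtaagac
Hashtag of replicate 2: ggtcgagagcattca
Hashtag of replicate 3: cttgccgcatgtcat
Hashtag of replicate 4: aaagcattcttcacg

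The antibody tags of cycling B-lineage cells were led by CD117, the stem cell factor receptor (median log2 ratio 3.08), CD71, the transferrin receptor that brings iron into dividing cells (2.26), CD95, the death receptor Fas of germinal centre cells (2.05), and CD86, a costimulatory ligand of activated B cells (1.67). Levels are tag UMIs per 10000 of a replicate's antibody UMIs. CD71 stood at 121.7 and 154.4 in R594C/R594C, 148.1, 139.2, 94.8 and 111.9 in R594C/+ and 92.4, 102.4, 187.3 and 127.4 in WT, all above the range of 24.4 to 31.4 in not cycling cells. CD95 stood at 35.0 and 26.8 in R594C/R594C, 58.13, 49.96, 101.0 and 45.02 in R594C/+ and 45.1, 44.6, 67.9 and 61.2 in WT. The R594C/R594C values of CD95 were the lowest, as in not cycling cells, where CD95 stood at 5.41 and 5.13 in R594C/R594C, 10.7 to 14.8 in R594C/+ and 11.9 to 12.8 in WT. In cycling cells R594C/R594C minus WT gave a log2 fold of -0.58 ± 0.37 SE (edgeR adjusted p = 0.292). CD55 (-1.82), IgD (-1.77) and CD38 (-0.934), a receptor that mouse germinal centre cells lose, were lower in cycling cells. CD55 and IgD were so lower as protein tag and as transcript.

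The CD117 tag came mostly from a subset of the cells classed as B. Of the 456 cycling B-lineage cells 51 (11.2%) also held 10 or more UMIs of the early myeloid list or 3 or more of the erythroid list, against 0.489% of those not cycling. The cycling cells were deeper (median 12853 UMIs, against 2889), and a deeper cell passes a fixed count more readily. The 2 shares were not compared at equal depth. These 51 cells carried 1722 of 2209 CD117 UMIs (78.0%), at 516.0 per 10000, against 18.9 in the other cycling B cells and 5.75 in not cycling ones. CD95 and CD86 went the other way, with 16.8 and 56.3 per 10000 in the 51 cells, against 55.0 and 136.2 in the other cycling B cells and 9.7 and 37.0 in not cycling ones. CD71 was high in both kinds of cycling cell, at 214.5 and 119.8. The 51 cells numbered 6 and 11 in R594C/R594C, 11, 8, 2 and 7 in R594C/+ and 0, 6, 0 and 0 in WT. By count they were thus fewest in WT, where all came from replicate 2, the Xist-high one. As a part of the cycling B-lineage cells that replicate was not low. It held 6 among 31 cells, against 11 among 57 in R594C/+ replicate 1 and 11 among 59 in R594C/R594C replicate 2. The tests below were repeated without these cells.

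**Figure D3:**
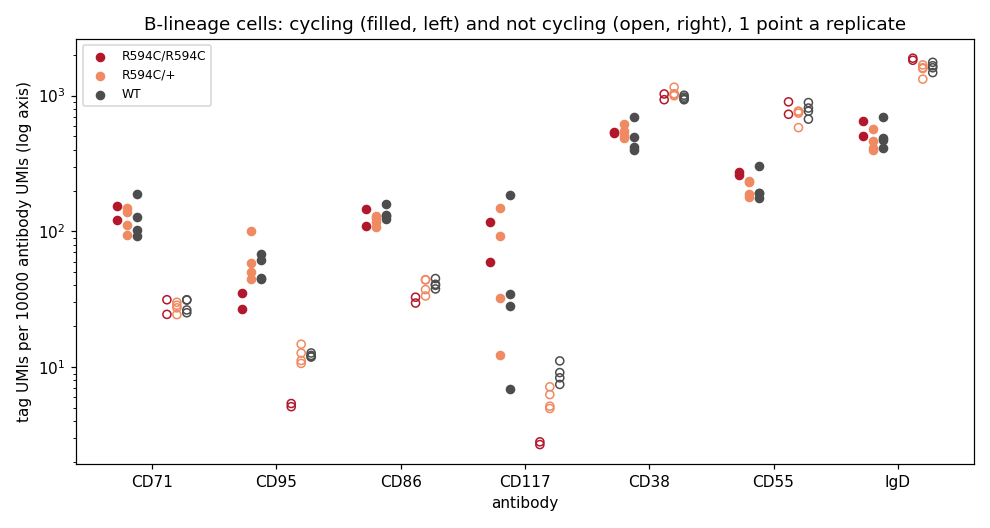
Antibody tags in B-lineage cells, as tag UMIs per 10000 antibody UMIs (log axis), 1 point per replicate, in cycling (filled) and not cycling (open) cells. CD71 lies between 92.4 and 187.3 in cycling and between 24.4 and 31.4 in not cycling cells, while CD55 and IgD lie lower in cycling cells.

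Cycling T-lineage cells shared the replication and mitosis genes. Of 3675 genes ranked, 13.4% had a median ratio above 1 and 5.44% one below -1, and the highest were Pclaf (5.64), the histone H2ac8 (5.57) and Ube2c (5.46). Cd8b1, a chain of the CD8 coreceptor, had 53.3 to 399.0 CPM (median 130.2) in cycling cells and 171.2 to 397.9 CPM (median 332.9) in the others, lower in 9 of 10 replicates. Cd4 had 36.5 to 115.7 CPM (median 67.8), against 71.0 to 135.5 CPM (median 78.9), and Foxp3, the factor of regulatory T cells, had 0 to 68.7 CPM (median 19.4), against 11.6 to 61.1 CPM (median 21.4), so that both overlapped. Gzma, a protease of killer cells, had 0 to 776.7 CPM (median 34.1), against 13.5 to 107.9 CPM (median 44.2). Among the 148 cells 16 (10.8%, against 0.96% of those not cycling) also passed the myeloid or erythroid limits, 2 and 3 in R594C/R594C, 0, 4, 3 and 4 in R594C/+ and 0 in each WT replicate. Here too the cycling cells were deeper (median 11126 UMIs, against 3539), and the shares were not compared at equal depth.

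Cycling Jchain-high cells combined the antibody-secreting programme with genes of germinal centre and mature B cells. Jchain, which joins IgM and IgA units, had 8684 to 19740 CPM (median 11690) in cycling and 29270 to 47340 CPM (median 35140) in not cycling cells, so the states did not overlap. Xbp1 overlapped between them, with 800.9 to 1358 CPM (median 1060), against 906.1 to 1563 CPM (median 1138). So did Prdm1, the factor Blimp-1 that fixes plasma cell fate, with 45.3 to 135.5 CPM (median 102.6), against 75.4 to 144.3 CPM (median 81.9). Sdc1, the plasma cell surface protein CD138, was lower in 10 of 10 replicates, with 65.0 to 127.6 CPM (median 88.7), against 121.5 to 169.5 CPM (median 144.7).

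B cell genes were higher in the cycling Jchain-high cells. Ms4a1 had 191.3 to 513.1 CPM (median 320.5), against 42.7 to 83.6 CPM (median 63.4). Pax5, the factor of B cell identity that plasma cells switch off, had 23.9 to 175.0 CPM (median 73.5), against 4.86 to 21.3 CPM (median 8.03). S1pr2 had 23.1 to 88.5 CPM (median 54.2), against 0 to 4.86 CPM (median 2.26). All 7 mature B genes and 9 of 10 germinal centre genes were higher in the pooled cycling cells. The background was high here, since 53.8% of 2413 ranked genes had a ratio above 1 (median 1.05) and Ighm took a smaller part of each cycling library (47320 CPM pooled, against 95800 CPM), so a count of higher genes says little about a list. The ER chaperone list summed to 12530 CPM in cycling and 7193 CPM in not cycling cells and was higher in 10 of 10 replicates. The list of XBP1s targets and secretory genes summed to 7116 and 6156 CPM and was higher in 8 of 10. Ighm was the most abundant heavy chain in 72 of 133 cycling cells (54.1%) and 565 of 882 others (64.1%), and Ighg2c in 25 (18.8%) and 63 (7.14%). In R594C/R594C Ighm led 19 of 20 cycling cells in replicate 1 and 3 of 12 in replicate 2, so these replicates differed widely from each other.

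Hemoglobin-high cells that cycled carried genes of red cell precursors. The 85 cycling cells had a median of 10870 UMIs, and Gata1, the master factor of the red lineage, had 57.1 to 173.0 CPM (median 148.7) over the 9 replicates with such cells, while no UMI of it was found in the 41 not cycling ones. Klf1, which activates globin genes, had 190.5 to 525.7 CPM (median 359.8), against 0 to 86.0 CPM. The leading ratios were those of Car1, a carbonic anhydrase of early red cells (7.42), and Dut, which keeps uracil out of DNA (7.31). Alas2, the haem enzyme of later red cells, pooled to 194.3 CPM in cycling and 726 CPM in not cycling cells, and Hbb-bs to 26650 and 208300 CPM. The not cycling cells of this class also held macrophage genes, with mean levels of 50.6 CPM in cycling and 1121 CPM in not cycling cells for C1qb, a part of complement C1. Cycling cells of this class numbered 6 and 12 in R594C/R594C, 7, 17, 14 and 15 in R594C/+ and 3, 9, 2 and 0 in WT. With under 10 cells in every WT replicate, their genes were not tested between genotypes.

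The 282 cycling cells without a lineage mark fell into 3 kinds by the marker lists. Early myeloid genes at 10 or more UMIs were found in 76 cells, with S100a9 at 95230 CPM, Camp, an antimicrobial peptide of granules, at 39910 CPM, Elane, neutrophil elastase, at 1398 CPM and Mpo, myeloperoxidase, at 834.1 CPM. These cells numbered 1 and 15 in R594C/R594C, 31, 2, 6 and 18 in R594C/+, and 0, 3, 0 and 0 in WT. A further 79 cells held 3 or more UMIs of the erythroid list but a median of 1 hemoglobin UMI, with Car1 at 3295 CPM, Klf1 at 199.4 CPM and Gfi1b, a repressor of the red and platelet lineages, at 141.5 CPM. They were the deepest libraries, with a median of 35111 UMIs, and numbered 3 and 23 in R594C/R594C, 7, 12, 5 and 15 in R594C/+, and 4, 6, 2 and 2 in WT.

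The remaining 127 unmarked cells were led by genes of antigen presentation. Cd74, the invariant chain of MHC class II, stood at 11640 CPM, H2-Ab1 at 6340 CPM, Batf3, a factor of cross-presenting dendritic cells, at 193.5 CPM, Xcr1, a chemokine receptor of the same cells, at 109.3 CPM and Itgax, the integrin CD11c, at 148.4 CPM. These cells numbered 17 and 20 in R594C/R594C, 28, 16, 3 and 17 in R594C/+, and 4, 10, 5 and 7 in WT. Genes of natural killer cells, which are common among unmarked cells, were lower in the cycling ones, with the list summing to 148.5 CPM in cycling and 1536 CPM in not cycling cells of the class. Over all unmarked cells the dendritic list was lower in the cycling ones too, at 161.0 CPM in cycling and 460.5 CPM in not cycling cells, with 0 of 7 genes higher. Siglech, a mark of plasmacytoid dendritic cells, stood at 0.94 CPM in cycling and 116.2 CPM in not cycling cells.

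The balance of S phase to G2 and M UMIs differed between classes as a description. Pooled over replicates the ratio of the S phase list to the G2 and M list, without the rule genes, was 0.82 in hemoglobin-high, 0.763 in B-lineage, 0.64 in T-lineage, 0.615 in mixed, 0.578 in unmarked and 0.468 in Jchain-high cells. Jchain-high cells held 27.0 S phase UMIs per 10000 and 57.7 G2 and M UMIs, against 52.5 and 68.8 in B-lineage cells. By replicate the B-lineage ratio was 0.794 and 0.724 in R594C/R594C, 0.582, 0.714, 1.0 and 0.839 in R594C/+ and 0.703, 0.706, 0.868 and 0.892 in WT, with overlap of all genotypes. The Jchain-high ratio was 0.595 and 0.511 in R594C/R594C, 0.351, 0.44, 0.749 and 0.455 in R594C/+ and 0.353, 0.428, 0.639 and 0.282 in WT, and also overlapped. The rule genes are themselves used from S phase to mitosis, so the rule selects against cells in G1. No phase was assigned to single cells, and the number in G1 is not known.

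**Figure D4:**
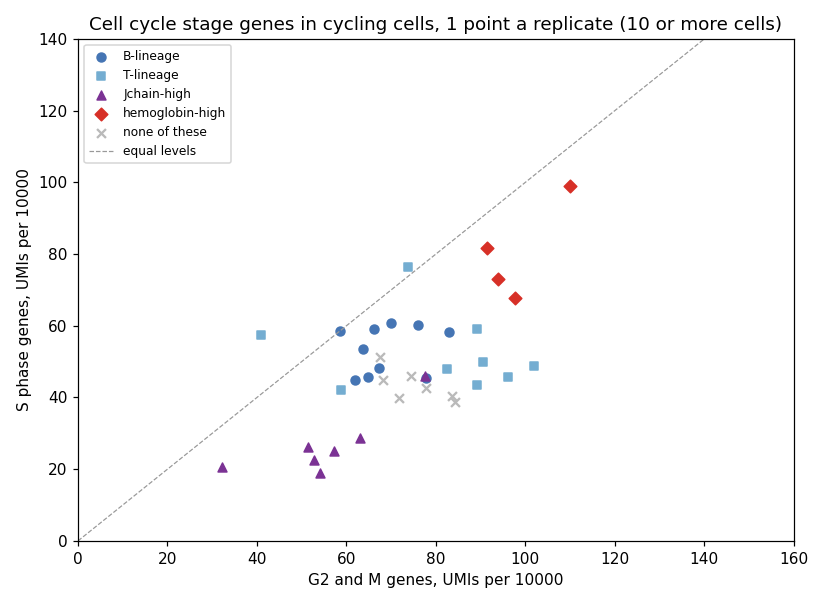
S phase UMIs per 10000 (y axis) against G2 and M UMIs per 10000 (x axis) in cycling cells, 1 point per replicate with 10 or more cells of the class, over all genotypes, with a dashed line of equal levels. Pooled over replicates Jchain-high cells have 27.0 S phase UMIs per 10000, hemoglobin-high cells 78.6 and B-lineage cells 52.5, and single points of the classes overlap, with Jchain-high R594C/R594C replicate 1 at 46.1 and T-lineage WT replicate 1 at 76.4.

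Between genotypes the cycling B-lineage cells differed in 2 of 8233 genes. Counts were summed per replicate and tested with edgeR's quasi-likelihood test, with Benjamini-Hochberg adjustment at 0.05. R594C/R594C minus WT gave 0 calls (309 genes at an unadjusted p under 0.05, and 0 by DESeq2), R594C/R594C minus R594C/+ gave 0 (292 unadjusted, 3 by DESeq2) and R594C/+ minus WT gave 2 (0.0243% of the genes tested). The comparisons share their samples in pairs. In simulated counts for R594C/R594C minus WT at these depths, 79.8% of 4-fold and 36.5% of 2-fold changes were recovered among 7931 genes. Of 7736 unchanged genes 4 were called.

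Cd63, a tetraspanin of late endosomes and granules, had 2.0 and 10.2 CPM in R594C/R594C, 57.1, 39.2, 73.3 and 59.3 CPM in R594C/+ and 0, 1.7, 6.3 and 0 CPM in WT (R594C/+ minus WT log2 4.40 ± 0.54 SE, edgeR adjusted p = 0.00274). Every R594C/+ value lay above every other. Mxd1, a repressor that competes with Myc for its partner Max, had 37.7 and 43.7 CPM in R594C/R594C, 53.9, 71.9, 81.7 and 66.7 CPM in R594C/+ and 29.6, 33.2, 14.3 and 22.4 CPM in WT (log2 1.49 ± 0.25 SE, edgeR adjusted p = 0.0498). Neither call was made once cells with myeloid or erythroid genes were left out, where Cd63 was too low to be tested and Mxd1 had a log2 fold of 0.76 (edgeR adjusted p = 0.999), nor with the Xist class as a covariate (edgeR adjusted p = 0.157 and 0.447). The early myeloid list summed to 15.9 and 1793 CPM in cycling B-lineage cells of R594C/R594C, to 4993, 12940, 566 and 1067 CPM in R594C/+ and to 3.29, 6.98, 9.51 and 11.2 CPM in WT. The list was high in every R594C/+ replicate and in R594C/R594C replicate 2, and R594C/R594C replicate 1 lay near the WT values.

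Genes downstream of IRE1 were not called in cycling B-lineage cells. Xbp1 had 65.5 and 284.6 CPM in R594C/R594C, 147.7, 162.1, 186.5 and 164.2 CPM in R594C/+ and 69.0, 284.5, 66.6 and 226.6 CPM in WT. The spread within R594C/R594C and WT was as wide as the whole range, and the fold was 0.10 ± 0.73 SE for R594C/R594C minus WT. Ern1 itself was too low to test there, with 1.0 and 10.2 CPM in R594C/R594C, 4.3, 10.5, 16.8 and 3.7 CPM in R594C/+ and 6.6, 14.0, 1.6 and 2.2 CPM in WT. Ern1 transcripts do not check the labels, since a base change need not alter their number. The 13 ER chaperones had a median log2 fold of -0.07 for R594C/R594C minus WT (9 below 0) and -0.28 for R594C/R594C minus R594C/+ (13 below 0), with 0 called, and the medians over all genes were -0.0043 and -0.0045. The 10 germinal centre genes had a median of -0.58 for R594C/R594C minus WT with 7 below 0 and 0 called.

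The genotype effect was also compared between cycling and not cycling B-lineage cells, in a fit with each replicate as its own block over 12725 genes. For R594C/R594C minus WT 0 genes were called (469 at an unadjusted p under 0.05, 0 by DESeq2), for R594C/+ minus WT 2 (0.0157%) and for R594C/R594C minus R594C/+ 1 (0.00786%). E330020D12Rik, for which no role is given here, had 16.9 and 16.3 CPM in cycling B-lineage cells of R594C/R594C, 22.6, 28.8, 29.3 and 67.9 CPM in R594C/+ and 9.9, 21.0, 9.5 and 6.7 CPM in WT, while in not cycling cells it had 43.8 to 58.5 CPM in R594C/+ and 47.6 to 70.6 CPM in WT (difference of the R594C/+ minus WT effects log2 1.85 ± 0.33 SE, edgeR adjusted p = 0.0198). Gm30211 had 31.8 and 19.3 CPM in cycling cells of R594C/R594C, 59.3, 77.1, 77.5 and 56.8 CPM in R594C/+ and 95.3, 68.1, 50.7 and 56.1 CPM in WT, with 76.5 to 99.2 CPM in all not cycling replicates (R594C/R594C minus R594C/+ log2 -1.46 ± 0.26 SE, edgeR adjusted p = 0.0387). Birc5 was the other gene called for R594C/+ minus WT, and since it chose the cells nothing is read from it.

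Antibody tags in cycling B-lineage cells differed in 10 of 106 (9.43%) for R594C/R594C minus WT, 1 higher and 9 lower, and in 4 (3.77%) for R594C/+ minus WT. For R594C/R594C minus R594C/+ edgeR called 0 (20 at an unadjusted p under 0.05, 3 by DESeq2). CD5, a brake on antigen receptor signals carried by B-1 cells and T cells, stood at 62.5 and 87.0 per 10000 in R594C/R594C, 42.1, 40.8, 49.7 and 54.2 in R594C/+ and 51.5, 44.1, 47.2 and 44.9 in WT (R594C/R594C minus WT log2 0.94 ± 0.27 SE, edgeR adjusted p = 0.0497). The R594C/R594C values lay above all others. The largest fold downward was that of CD197, the homing receptor CCR7, with 0.9 and 0.2 in R594C/R594C, 0.9, 1.8, 4.1 and 2.3 in R594C/+ and 8.5, 8.6, 12.8 and 8.4 in WT (log2 -3.70, edgeR adjusted p = 0.00437). The other lower tags were CD169, CD137, TCRg3, CD63, Ly49H and the isotype controls IgG1_Rat_k, IgG1_Rat_l and IgG2a_Rat_k. Control antibodies that bind no mouse target were so among those that fell, with IgG1_Rat_k at 1.6 and 1.0 in R594C/R594C, 2.6, 4.9, 3.7 and 2.8 in R594C/+ and 8.5, 8.1, 17.6 and 7.9 in WT. The level of control tags moved with the capture, and its part in the other lower tags was not tested. For R594C/+ minus WT, CD371, a lectin of myeloid cells, was called higher (log2 1.82, edgeR adjusted p = 0.0382) and CD137, CD197 and IgG1_Rat_l lower. None of these 4 calls was made without the cells carrying myeloid or erythroid genes, where the log2 fold of CD371 was 0.36 (edgeR adjusted p = 0.681) and those of CD137, CD197 and IgG1_Rat_l were -1.88, -1.87 and -1.35 (edgeR adjusted p = 0.0593, 0.0712 and 0.0593), nor with the Xist class as a covariate (edgeR adjusted p = 0.285 for CD371 and 0.239 for each of the others).

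In cycling T-lineage cells 4486 genes were tested. In simulated counts for R594C/R594C minus WT, 79.6% of 4-fold but 8.51% of 2-fold changes were recovered in this class. Of 3949 unchanged genes 5 were called. R594C/R594C minus WT gave 3 calls (0.0669%), R594C/+ minus WT 2 (0.0446%) and R594C/R594C minus R594C/+ 2 (0.0446%). Lmo2, a factor of blood precursors, had 48.4 and 111.0 CPM in R594C/R594C, 47.52, 74.02, 78.70 and 91.13 CPM in R594C/+ and 0, 7.6 and 7.5 CPM in the 3 WT replicates with enough cells (R594C/R594C minus WT log2 3.98 ± 0.74 SE, edgeR adjusted p = 0.0445; R594C/+ minus WT log2 3.94 ± 0.70 SE, edgeR adjusted p = 0.0216). Plac8, a gene of activated and myeloid cells, had 51.6 and 59.8 CPM in R594C/R594C, 169.7, 227.0, 310.2 and 473.9 CPM in R594C/+ and 37.0, 45.7 and 67.8 CPM in WT (R594C/+ minus WT log2 2.66 ± 0.40 SE, edgeR adjusted p = 0.0143; R594C/R594C minus R594C/+ log2 -2.46 ± 0.42 SE, edgeR adjusted p = 0.0322). Mutant values of Lmo2 lay above all WT values, and R594C/+ values of Plac8 above all others. The other calls for R594C/R594C minus WT were 1110038B12Rik (log2 2.01 ± 0.32 SE, edgeR adjusted p = 0.0118) and Hdgf, a growth factor of the nucleus (log2 1.29 ± 0.25 SE, edgeR adjusted p = 0.0458).

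None of these calls against WT was made once the T-lineage cells with myeloid or erythroid genes were left out, where the folds were 0.64 for Hdgf (edgeR adjusted p = 0.975), 2.03 for 1110038B12Rik (adjusted p = 0.165) and 2.95 for Plac8 (R594C/+ minus WT, adjusted p = 0.746), so that the last 2 folds were as large without those cells. Lmo2 was not among the genes tested there. With the Xist class as a covariate neither R594C/+ minus WT call was made, with log2 folds of 3.19 for Lmo2 and 2.60 for Plac8 (edgeR adjusted p = 0.119 for both). In the same fit Lmo2 and 1110038B12Rik were still called for R594C/R594C minus WT (edgeR adjusted p = 0.0494 and 0.0129), while Hdgf (edgeR adjusted p = 0.0607) and, for R594C/R594C minus R594C/+, Plac8 (log2 -2.41, edgeR adjusted p = 0.636) were not. When WT replicate 4 with its 8 cells was let in, the fold of 1110038B12Rik was 1.12 (edgeR adjusted p = 0.481). The early myeloid list in cycling T-lineage cells summed to 11500 and 34.2 CPM in R594C/R594C, 74.7, 27030, 78.7 and 33820 CPM in R594C/+ and 0, 30.5, 7.53 and 15.6 CPM in WT. The erythroid list summed to 868 and 1268 CPM in R594C/R594C, 170, 1377, 1292 and 190 CPM in R594C/+ and 30.1 to 60.9 CPM in WT, below every mutant replicate. All 5 tested genes of each of these lists lay above 0 for R594C/R594C minus WT, with 0 called, and of the cell cycle genes 26 of 30 S phase genes lay below 0 (median -0.37) and 26 of 30 G2 and M genes above 0 (median 0.50), again with 0 called. Igkc, the kappa light chain of B cells, had 229.2 and 320.2 CPM in R594C/R594C and 828.3, 838.9, 833.3 and 721.7 CPM in R594C/+ (log2 -1.56 ± 0.22 SE, edgeR adjusted p = 0.00216), and the same order stood in not cycling T-lineage cells, with 697.4 and 689.9 CPM in R594C/R594C and 1592 to 2033 CPM in R594C/+. Igkc is not made by T cells, its level moved with the capture in both states, and the part of RNA from other cells was not tested.

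Cycling Jchain-high cells gave the most calls, all of them lower in the mutants and all resting on few replicates. With at least 10 cells a replicate, 2 R594C/R594C, 3 R594C/+ and 2 WT replicates entered. In simulated counts for R594C/R594C minus WT, 91.6% of 4-fold (87 genes) and 23.3% of 2-fold changes (21 genes) were recovered in this class. Beside them 15 of 3686 unchanged genes were called, so false calls are to be reckoned with here. Of 4212 genes 21 (0.499%) fell in R594C/R594C minus WT and 6 (0.142%) in R594C/+ minus WT, and 0 were called for R594C/R594C minus R594C/+ (260 at an unadjusted p under 0.05, 1 by DESeq2). When replicates with 5 to 9 cells were let in, which adds 2 WT replicates and 1 R594C/+ replicate, 0 genes were called in any comparison. Among the 21 were 4 genes of the ER lists. Edem2, which marks misfolded proteins for destruction, had 98.8 and 127.6 CPM in R594C/R594C, 247.6, 179.7, 192.1 and 165.8 CPM in R594C/+ and 251.1, 306.1, 281.2 and 206.5 CPM in WT (log2 -1.75 ± 0.29 SE, edgeR adjusted p = 0.0098; with the smaller replicates log2 -1.47, adjusted p = 0.116). Here and in the genes that follow R594C/+ replicate 3 had 8 cells, WT replicate 1 had 9 and WT replicate 4 had 6, and all 10 values are given. Both R594C/R594C values lay below all others.

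Ssr4, a subunit of the complex at the ER translocon, had 848.3 and 964.8 CPM in R594C/R594C, 1523, 1355, 1828 and 1388 CPM in R594C/+ and 1309, 1450, 1776 and 907.2 CPM in WT (log2 -1.17 ± 0.19 SE, edgeR adjusted p = 0.00773; with the smaller replicates log2 -0.82, adjusted p = 0.695). Sec11c, the catalytic part of the signal peptidase, had 854.4 and 960.8 CPM in R594C/R594C, 1362, 1241, 1382 and 1362 CPM in R594C/+ and 1210, 1341, 1479 and 926.0 CPM in WT (log2 -0.98 ± 0.17 SE, edgeR adjusted p = 0.0148; with the smaller replicates log2 -0.68, adjusted p = 0.647). For these genes R594C/R594C lay below every R594C/+ value and overlapped only WT replicate 4. Dnajb9, a cofactor of the chaperone BiP and a known XBP1s target, had 119.4 and 59.8 CPM in R594C/R594C, 157.5, 181.8, 142.5 and 191.8 CPM in R594C/+ and 107.0, 210.4, 181.1 and 137.6 CPM in WT (log2 -1.43 ± 0.28 SE, edgeR adjusted p = 0.0342; with the smaller replicates log2 -1.06, adjusted p = 0.60). Its R594C/R594C values lay below all others but WT replicate 1.

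Fkbp11, a folding enzyme of secretory cells, had 49.4 and 59.8 CPM in R594C/R594C, 367.6, 181.8, 204.5 and 373.8 CPM in R594C/+ and 234.6, 199.8, 373.7 and 68.8 CPM in WT (log2 -2.76 ± 0.47 SE, edgeR adjusted p = 0.0461; with the smaller replicates log2 -2.32, adjusted p = 0.60). Its R594C/R594C values lay below all others. In not cycling Jchain-high cells Fkbp11 had 109.6 and 72.7 CPM in R594C/R594C, 118.2 to 155.1 CPM in R594C/+ and 133.6 to 223.0 CPM in WT, again with R594C/R594C lowest, while Sec11c had 923.2 and 946.6 CPM in R594C/R594C, 932.6 to 962.0 CPM in R594C/+ and 901.2 to 946.6 CPM in WT, with overlap of all genotypes. Whether the genotype effect differs between cycling and not cycling Jchain-high cells was not tested. Xbp1 was not called for R594C/R594C minus WT, with a fold below 0 as in the ER genes (log2 -0.40 ± 0.20 SE, edgeR adjusted p = 0.527). Its CPM overlapped between genotypes, with 1044 and 1252 CPM in R594C/R594C, 991.4 to 1358 CPM in R594C/+ and 800.9 to 1235 CPM in WT. The folds adjust for library composition and the CPM do not. Counts per gene do not tell spliced from unspliced Xbp1.

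The rest of the 21 were of mixed kind. The lowest folds, beside Fkbp11, were those of the kappa segment Igkv10-96 (-7.38), the tubulin acetylase Atat1 (-4.38), the transcription factor Nfic (-3.37) and the immune checkpoint receptor Ctla4 (-2.62), and the folds nearest to 0, beside Sec11c, were those of the nuclear RNA Malat1 (-0.55), the translocon gene Serp1 (-0.89), the oligosaccharyltransferase subunit Krtcap2 (-0.98) and the lambda segment Iglv1 (-1.002). Igkv10-96 was found in few replicates, with 2.06 and 0 CPM in R594C/R594C, 0 CPM in each R594C/+ replicate and 0, 146.7, 308.2 and 0 CPM in WT. For R594C/+ minus WT the 6 genes were Txndc5, a disulfide isomerase of the ER (log2 -0.99 ± 0.16 SE, edgeR adjusted p = 0.0119), the histone gene H3f3b (-0.63), the phosphatase gene Dusp1 (-1.34), Nfkbiz (-2.16), the metallothionein Mt2 (-3.24) and Igkv10-96 (-9.52).

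As lists, 13 of 13 ER chaperones and 15 of 15 XBP1s targets and secretory genes lay below 0 for R594C/R594C minus WT, with 1 and 3 called and medians of -0.69 and -0.86, against 0.03 over all genes. The plasmablast and plasma list had 9 of 9 below 0 and a median of -0.76, while 25 of 28 S phase genes lay above 0 (median 0.44), none of either called. With the smaller replicates the medians of the ER and XBP1s lists were -0.29 and -0.59. For R594C/R594C minus R594C/+, which shares the R594C/R594C samples, 13 of 13 and 13 of 15 lay below 0 (medians -0.44 and -0.56), with 0 called. For R594C/+ minus WT, 12 of 13 and 14 of 15 lay below 0 (medians -0.25 and -0.34), and with the smaller replicates 12 of 13 and 9 of 15 lay above 0 (medians 0.26 and 0.06), so that direction turned with the replicates used. The XBP1s list summed in cycling cells to 5693 and 5952 CPM in R594C/R594C, 8110, 7143, 8521 and 7070 CPM in R594C/+ and 6750, 7582, 9215 and 5981 CPM in WT, with R594C/R594C below every other replicate, nearest to WT replicate 4.

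**Figure D5:**
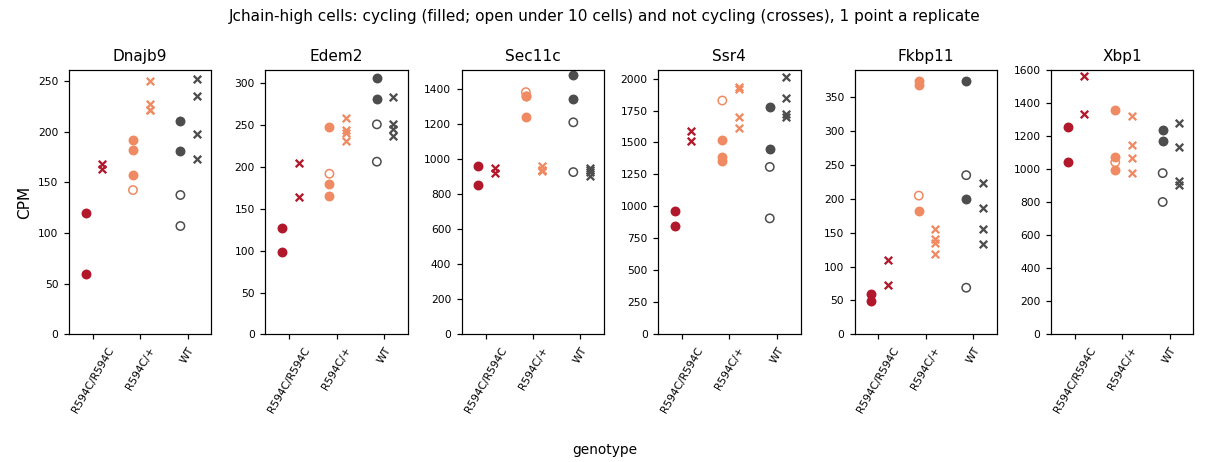
CPM of Dnajb9, Edem2, Sec11c, Ssr4, Fkbp11 and Xbp1 in Jchain-high cells, 1 point per replicate, in cycling and not cycling cells of R594C/R594C, R594C/+ and WT; filled circles are cycling cells, open circles cycling cells of replicates with under 10, and crosses not cycling cells. Edem2 lies at 98.8 and 127.6 CPM in cycling R594C/R594C cells, below all R594C/+ and WT values, while Xbp1 overlaps between genotypes.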

How the data were processed

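The authors deposited raw UMI counts per gene, antibody tag and hashtag for each barcode, 55385 genes, 191 antibodies and 24 hashtags in all, with no normalization. Per the file headers, the counts came from Cell Ranger 5.0.0, and the submitters' processing notes name mm10, STAR and Seurat 3.1.4 besides. How barcodes were picked is not given in the sources used here. The lowest had 500 RNA UMIs. Of 51451 barcodes 45218 were kept, with at least 200 genes, at most 10% mitochondrial UMIs, and a top hashtag of at least 20 UMIs and 3 times the next of the 4 in use. The labels give replicates 1 to 4 to the 4 hashtags in WT and R594C/+ and 1 and 2 in R594C/R594C, and 1 R594C/R594C cell with another hashtag entered no comparison. Doublets of different hashtags were removed by that margin, and no doublet caller was run. The myeloid limit was 10 UMIs of the early myeloid list and the erythroid limit 3 UMIs of the erythroid list.

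Counts of replicates with at least 10 cells of a class were summed and tested with edgeR 4.0.16 (TMM scaling, filterByExpr, robust quasi-likelihood, Benjamini-Hochberg at 0.05) over all genotypes together, since R594C/R594C has 2 replicates, and so were antibodies that averaged 10 UMIs or more a replicate. Shares were tested by two-sided exact permutation over replicates. DESeq2 1.42.0, other thresholds and filters, and leaving out replicates were alternatives. Cycling and not cycling cells were compared as log2 ratios with 5 CPM added (antibodies with 1 per 10000 added and at least 20 per 10000 in the higher state) and with no test. Members and the 21 gene lists were chosen with earlier results of these data known. Named were the rule genes, Ern1 and Xbp1, every gene or antibody called where at most 10 were, otherwise the 5 highest and 5 lowest folds, the 10 highest and 5 lowest ratios in B-lineage cells and the 3 highest elsewhere (some named items are not reported here), and the most abundant or best-known members of the lists; further list members and C1qb were named after their values were seen. Of the list genes 6 were not in the files under their symbol, 5 of these were found through a table of gene names, and 1 was not matched. The fits were tested on simulated data. Replicate numbers were not treated as pairs. R 4.3.3 and Python 3.11.15 ran the work, with pandas 2.3.3, scipy 1.17.1, numpy 2.4.6 and, for figures, matplotlib 3.10.9. Intervals of shares and precision from counts cover counting error only.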

Additional observations from a re-analysis of the deposited data

Results flagged for a closer look

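Among 45 groups of 4 replicates examined for a value far from the others, 3 held one, where chance gives about 1 in 20. In cycling B-lineage cells of WT, the CD197 tag stood at 12.8 per 10000 in replicate 3, against 8.4 to 8.6 in the other replicates, and the isotype control IgG1_Rat_k at 17.6 per 10000 in the same replicate, against 7.9 to 8.5. In cycling T-lineage cells of R594C/+, Igkc had 722 CPM in replicate 4, against 828.3 to 838.9 CPM in the other replicates.

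The genotype effect differed between cycling and not cycling B-lineage cells for 3 genes, by edgeR's test of the difference. For R594C/+ minus WT the difference was 1.85 on the log2 scale for E330020D12Rik and -1.61 for Birc5, a gene that chose the cells and from which nothing is read. For R594C/R594C minus R594C/+ it was -1.46 for Gm30211.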

How the results depend on the processing

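Counts of called genes were small and moved with most settings, and the cause was not tested unless the setting removes cells or genes by its construction. Counts below follow the order R594C/R594C minus WT, R594C/R594C minus R594C/+ and R594C/+ minus WT. As reported they were 0, 0 and 2 in cycling B-lineage cells, 3, 2 and 2 in T-lineage cells, 21, 0 and 6 in Jchain-high cells, 10, 0 and 4 for antibody tags in B-lineage cells and 0, 1 and 2 for the difference between cycling and not cycling B-lineage cells.

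DESeq2 with its size factors gave 0, 3 and 16 in B-lineage, 31, 2 and 28 in T-lineage and 33, 1 and 4 in Jchain-high cells, 12, 3 and 7 tags and 0, 1 and 2 for the difference between states. With no filter on low counts there were 22, 20 and 42 calls in B-lineage, 109, 16 and 126 in T-lineage and 99, 17 and 63 in Jchain-high cells, 62, 0 and 2 tags and 8, 11 and 16 for the difference. With at least 5 cells a replicate Jchain-high cells gave 0, 0 and 0, T-lineage cells 4, 2 and 3, and the others were as reported. With halved lineage cutoffs there were 0, 0 and 0 calls in B-lineage and Jchain-high cells, 38, 1 and 0 in T-lineage cells, 6, 0 and 0 tags and 0, 0 and 0 for the difference, and with doubled cutoffs 0, 0 and 2 in B-lineage and 0, 1 and 0 in T-lineage cells, 9, 2 and 4 tags and 0, 0 and 3 for the difference, with Jchain-high cells fitted for R594C/R594C minus R594C/+ only (0). A rule of 2 UMIs gave 0, 1 and 2 in B-lineage, 11, 1 and 5 in T-lineage and 5, 1 and 0 in Jchain-high cells, 57, 3 and 22 tags and 0, 0 and 0 for the difference, and a rule of 5 UMIs 0, 0 and 0, 15, 5 and 11, no fit in Jchain-high cells, 5, 0 and 0 tags and 0, 1 and 0. Without cells over 3 times the median UMIs, 322 cycling cells were left (586 when thinned to 2000 UMIs), B-lineage cells gave 1, 2 and 3 calls, 1, 0 and 0 tags and 4, 9 and 13 for the difference, and T-lineage and Jchain-high cells could not be fitted. Without cells carrying myeloid or erythroid genes, chosen after the data were seen, there were 0, 0 and 1 (S100a9) calls in B-lineage, 0, 2 and 0 in T-lineage and 21, 0 and 6 in Jchain-high cells, 8, 1 and 0 tags and 0, 0 and 2 for the difference. With the Xist class as a covariate there were 0, 0 and 0, 2, 1 and 0, 20, 2 and 4, and 8, 1 and 0 tags. With the replicate block there were 1, 5 and 9 calls in B-lineage, 0, 2 and 2 in T-lineage and 32, 21 and 18 in Jchain-high cells and 7, 0 and 1 tags, and the numbers do not pair the samples (correlations of same-numbered replicates from -0.131 to 0.411 in B-lineage, -0.252 to 0.141 in T-lineage and -0.0888 to 0.155 in Jchain-high cells).

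Leaving out 1 replicate at a time gave 0 to 3, 0 to 4 and 1 to 6 calls in B-lineage cells, 1 to 18, 0 to 2 and 0 to 24 in T-lineage cells, 10 to 32, 0 to 17 and 4 to 7 in Jchain-high cells, 2 to 17, 0 to 1 and 0 to 7 tags and 0 to 5, 0 to 4 and 0 to 6 for the difference. In Jchain-high cells the 10 calls came without R594C/+ replicate 2, and the 32 without R594C/R594C replicate 2. The 2 tags came without R594C/R594C replicate 2. The R594C/+ minus WT share of cycling cells ranged from 1.17 to 2.23 points, with 2.23 without R594C/+ replicate 3, and was 0.59 points without cells over 3 times the median UMIs. The R594C/R594C minus WT share turned to 0.0237 points with a rule of 5 UMIs and to 0.0674 points when thinned, and passed no test in either. Taking the next hashtag among all hashtags left every count as reported. Replicates held 59 to 170 cycling cells, and no setting varied that number alone.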
